A study of Mus musculus with 24 samples.

Results

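Ribosomal protein genes encode the protein parts of the large (60S) and small (40S) ribosomal subunits, and translation factor genes encode the proteins that start and extend each polypeptide on the ribosome. Both were followed in bulk RNA-seq of the prefrontal cortex (PFC) of male C57BL/6 mice. Members were taken by gene symbol alone from the protein-coding genes (Rpl, Rps, Rpsa and Rplp for ribosomal proteins, and Eif1 to Eif6, Eef1 and Eef2 for factors, with the eIF2 kinases and pseudogenes left out). The rule found 141 of the 14074 genes in the table, namely 79 ribosomal protein genes (45 of the large subunit, 31 of the small subunit and 3 paralogs) and 62 translation factor genes. All 141 were among the 14060 genes tested, and 135 had at least 100 reads in every library. The rule could find only genes in the table, so genes of these families absent from it, such as Rpl3l and Rpl10l, were not followed. Genes of ribosomal components with other symbols, such as Fau and Rack1, were in the table but are no members.

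The 24 libraries came from 6 groups of 4 mice. Control mice were never defeated and had been housed alone before the experiment. Passive coping (PS) and active coping (AS) mice had each gone through 30 days of chronic social defeat and had been assigned to the PS or AS cluster from their behaviour in a confrontation test. Within each of the 3 phenotypes, one group received saline and the other received the synthetic glucocorticoid dexamethasone (DEX, 2 mg/kg), and tissue was taken 6 h after the injection. All animals were of one strain and one sex, and each library was labelled with a mouse number.

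A ribosome needs its proteins in near equal numbers, and the genes of ribosomal proteins are therefore transcribed and translated as a coordinated set. Initiation factors bring the small subunit to the start codon (eIF1, eIF2, eIF3, eIF5), unwind and hold the capped mRNA end (eIF4), and reload eIF2 with GTP (eIF2B), whereas elongation factors deliver aminoacyl-tRNA (eEF1) and move the ribosome along (eEF2). The mRNAs of ribosomal proteins and of several factors begin with a run of C and T bases, the terminal oligopyrimidine tract, through which the mTOR kinase controls their translation. In neurons this machinery also works in dendrites, where local protein synthesis serves synaptic plasticity.

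Sequences around the annotated transcript starts of genes in the results below were read for such runs, which were long in some of them and short in others. RefSeq promoter entries (GRCm38.p6) were found for 107 of the 141 members, 59 ribosomal protein genes and 48 factor genes. Each line gives 30 bases, 10 before and 20 from the annotated start, 5′ to 3′ on the gene's strand, with the longest unbroken run of C and T bases in capitals. Rpl39, Rps27, Rplp2 and Rpl22 are shown because they passed the test in stressed mice (Rps27a, which also passed, had no entry), Eef2k, Eif2b2 and Eif5b because they passed it after DEX, and Rps6, Eef1a1, Eef2 and Eef1a2 for comparison.
Rpl39, chrX:37085203-37085232, minus strand: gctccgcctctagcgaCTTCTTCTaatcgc
Rps27, chr3:90213629-90213658, minus strand: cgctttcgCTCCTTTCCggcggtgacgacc
Rplp2, chr7:141447641-141447670, plus strand: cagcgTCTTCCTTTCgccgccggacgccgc
Rpl22, chr4:152325716-152325745, plus strand: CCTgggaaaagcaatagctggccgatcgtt
Rps6, chr4:86857348-86857377, minus strand: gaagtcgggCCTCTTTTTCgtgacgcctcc
Eef1a1, chr9:78481705-78481734, minus strand: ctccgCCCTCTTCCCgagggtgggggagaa
Eef2, chr10:81176621-81176650, plus strand: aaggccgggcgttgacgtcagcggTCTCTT
Eef1a2, chr2:181156996-181157025, minus strand: cctggtctgcgTTCTCgctcactggttctc
Eef2k, chr7:120842821-120842850, plus strand: cccgtgcgtcagTCCCgccccagccctggt
Eif2b2, chr12:85219471-85219500, plus strand: ccgagcggaagttgaCCTCTCTCggcccgg
Eif5b, chr1:37998000-37998029, plus strand: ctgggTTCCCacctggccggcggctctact
The run was 10 bases in Rplp2, Rps6 and Eef1a1, 9 in Rps27, 8 in Rpl39 and Eif2b2, 6 in Eef2, 5 in Eef1a2 and Eif5b, 4 in Eef2k and 3 in Rpl22. The Eef2 run reaches the last base shown, so 6 is a minimum. For Rpl22 the gene start used for counting lies near the end of the window, and for Rpl39 and Rplp2 it lies outside it. The runs thus depend on the start chosen. A run of at least 8 lay in this window in 35.6% of the ribosomal protein entries (21 of 59), in 16.7% of the factor entries (8 of 48) and in 11.4% of all genes of the table with an entry (1140 of 10032). Over the whole 300 bases of an entry and on either strand, the letters CCGGAAG (an ETS-type motif) were found in 40.7% of ribosomal protein entries, 29.2% of factor entries and 17.6% of all entries. TATAAA was found in 10.2%, 10.4% and 6.65%, and AAGATGG (a YY1-type motif) in 15.3%, 14.6% and 7.29%, respectively. Where a gene had several entries, members took the one nearest to the gene start used for counting and other genes the first listed. The shares of members and of all genes thus rest on unlike choices of start.

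Library depth ranged from 21121869 to 59439645 reads over the genes of the table, and the control libraries were among the shallower (21121869 to 24753489 with saline and 21252256 to 24086770 with DEX). As a check of the injections, Fkbp5, a glucocorticoid receptor target, had 796 ± 62, 881 ± 91 and 890 ± 139 normalized counts in control, PS and AS mice with saline, and 3820 ± 316, 3531 ± 276 and 3355 ± 521 with DEX (SD, n = 4). Cortical pyramidal markers were present in every library (summed normalized counts of 152177 to 219368), whereas the choroid plexus list had 1 of its 5 genes in the table. In bulk tissue, fewer cells of a type and less RNA per cell cannot be told apart.

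Ribosomal protein genes were expressed far above the typical gene. Levels between genes are given as the mean normalized count over the 24 libraries per kilobase of exon. The median was 1831 for ribosomal protein genes and 403 for factor genes, against 155 for all genes. Among ribosomal proteins, Rplp1, a protein of the acidic stalk of the large subunit, was highest at 13859 per kilobase, followed by Rps15 at 11600 and Rps3a1 at 6579. The 3 paralogs were low, at 316 for Rpl22l1, 265 for Rpl7l1 and 178 for Rps27l. Rps10 (27.1) and Rpl13a (152) were lowest among the canonical proteins. Both share exons on the same strand with another annotated gene (RPS10-NUDT3 and Gm45713), so their counts are uncertain. Such overlaps concerned 39 members (26 ribosomal proteins and 13 factors), many of them with annotated small nucleolar RNA or miRNA genes.

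The elongation factors stood at the top of the factors. Eef1a1 reached 19735 per kilobase and its neuron- and muscle-type paralog Eef1a2 15617, and Eef2, the translocase, reached 9850. Eif1, which guards start codon choice, followed at 3343, then Eif5a (2709) and the helicase Eif4a2 (2417). The regulators were far lower. Eef2k, the kinase that inhibits eEF2, was at 256, and the eIF4E repressors Eif4ebp2 and Eif4ebp1 were at 278 and 62.9. Eif4ebp3 (25.7) and Eif3j2 (28.2) were the lowest factors.

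**Figure D1:**
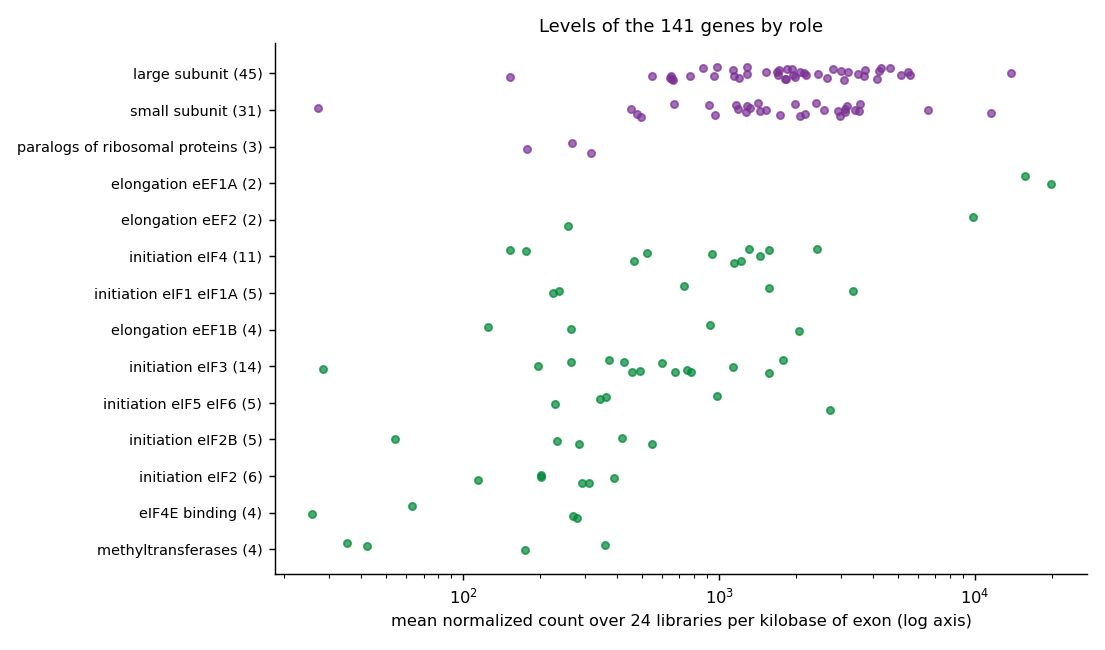
Mean normalized count over 24 libraries per kilobase of exon (x axis, log scale) for each of the 141 genes (points), by role (rows, number of genes in brackets). Ribosomal proteins are purple and factors green; most ribosomal proteins lie between 454 and 6579, and Eef1a1, Eef1a2 and Eef2 lie above nearly all of them.

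Ribosomal protein genes varied between libraries as a block. A score for each library, the mean over the 79 genes of the log2 level centred on the 24 libraries, ran from -0.24 in control mouse 112 (DEX) to 0.31 in AS mouse 60 (DEX). In the saline groups, the scores of the 4 control mice were -0.08, -0.22, -0.24 and 0.08, those of the PS mice were 0.08, 0.08, 0.19 and -0.03, and those of the AS mice were 0.11, -0.01, -0.03 and 0.29. The 3 lowest control saline mice lay below every stressed saline mouse, and control mouse 117 lay among the stressed mice.

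With DEX, the scores were 0.17, -0.23, -0.24 and -0.15 in controls, 0.04, 0.26, -0.16 and 0.03 in PS mice and 0.02, -0.17, 0.31 and -0.11 in AS mice. All 3 DEX groups overlapped, and mice 101, 34 and 60 stood high in them. The factor score moved far less, from -0.06 to 0.09. Group means of the ribosomal protein score were -0.11 ± 0.15 and -0.11 ± 0.19 in controls with saline and DEX, 0.08 ± 0.09 and 0.05 ± 0.17 in PS mice, and 0.09 ± 0.15 and 0.01 ± 0.21 in AS mice (SD, n = 4).

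**Figure D2:**
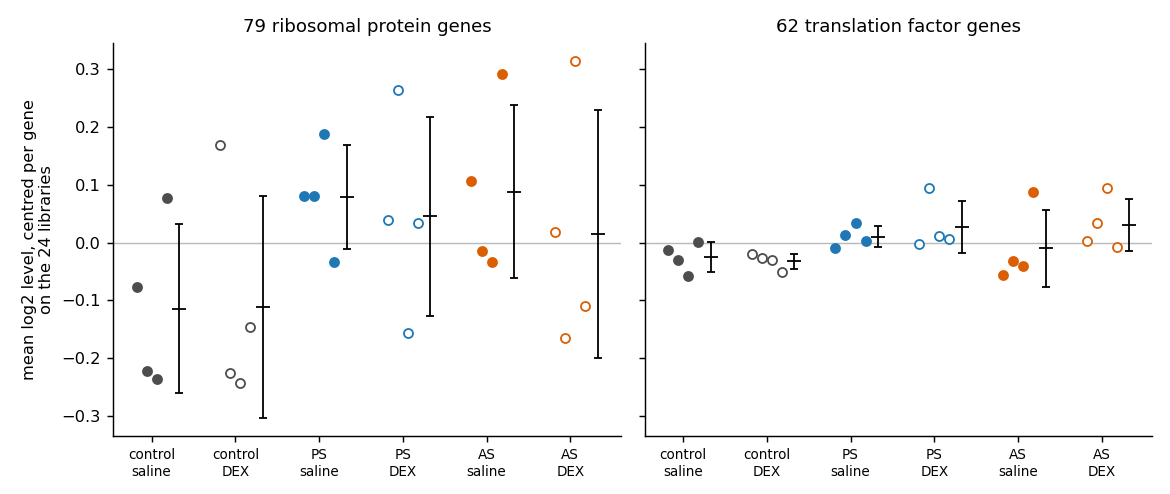
Score of the 79 ribosomal protein genes (left) and of the 62 factor genes (right), as the mean log2 level centred per gene on the 24 libraries, for each mouse (points, filled for saline and open for DEX), with mean ± SD of 4 mice. The ribosomal protein score runs from -0.24 to 0.31 and the factor score from -0.06 to 0.09.

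The block was visible in pairs of genes as well. Over the 24 libraries, after each group's mean was taken out, the median correlation between 2 ribosomal protein genes was 0.88 (3081 pairs, 99.5% of them positive), against 0.12 between 2 factor genes (1891 pairs, 59.9% positive). These are descriptions, since all pairs share the same libraries and scaling. Nuclear oxidative phosphorylation genes had a median of 0.79, and 139 other protein-coding genes with under 1000 bases of exon and a mean of at least 100 had 0.58. The same libraries stood high in all of these. AS mouse 60 (DEX) had a short-gene score of 0.37 and an oxidative phosphorylation score of 0.38, AS mouse 44 (saline) had 0.26 and 0.31, and PS mouse 34 (DEX) had 0.19 and 0.24. Ribosomal protein genes together took 0.886% to 1.32% of all normalized counts in a library, and factors 0.965% to 1.07%.

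The first question was whether chronic social defeat changed these genes in saline-treated mice. In PS against control mice, 5 of the 79 ribosomal protein genes rose and none fell. They were Rpl39, Rps27, Rps27a, Rplp2 and Rpl22, with log2 differences of 0.31 to 0.64. A gene was called at an adjusted p under 0.1 (limma on log2 of the normalized count + 1, Benjamini-Hochberg over all 14060 genes), and that rule called 1.51% of all genes in this comparison, 0.718% upward. None of the 62 factor genes was called.

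Rpl39, a small protein of the peptide exit tunnel (chrX:37082520-37085402), showed the clearest change. Its normalized counts were 724, 662, 623 and 835 in control mice, 1042, 1078, 1333 and 972 in PS mice, and 966, 847, 864 and 1178 in AS mice. The control and PS ranges did not overlap, and neither did the control and AS ranges. The PS difference was 0.64 ± 0.14 on the log2 scale (SE, adjusted p = 0.032, limma). In AS mice it was 0.43 ± 0.14 with an adjusted p of 0.27, which did not pass.

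Rps27, a zinc-binding protein of the small subunit (chr3:90212522-90213651), behaved alike in values. Control mice had 1577, 1400, 1565 and 1800 normalized counts, PS mice 2236, 2495, 2684 and 2108, and AS mice 2271, 1902, 1929 and 2506. Every stressed saline mouse exceeded every control saline mouse. The difference was 0.59 ± 0.14 in PS (adjusted p = 0.056, limma) and 0.44 ± 0.14 in AS (adjusted p = 0.29).

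Rps27a, which is made as a fusion of ubiquitin and a 40S protein (chr11:29545846-29548109), stood at 2386, 2010, 2000 and 2528 in control mice, 3266, 3309, 3391 and 2885 in PS mice and 3037, 2636, 2656 and 3745 in AS mice. Again no stressed mouse fell into the control range. Its difference was 0.53 ± 0.13 in PS (adjusted p = 0.054, limma) and 0.43 ± 0.13 in AS (adjusted p = 0.24).

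Rplp2, the partner of Rplp1 in the acidic stalk that recruits elongation factors (chr7:141447370-141451585), had 1547, 1425, 1434 and 1759 normalized counts in control mice, 2176, 2262, 2300 and 1999 in PS mice and 2382, 1993, 1852 and 2278 in AS mice. The groups with stress lay above the control group without overlap. The difference was 0.51 ± 0.13 in PS (adjusted p = 0.063, limma). In AS it was 0.46 ± 0.13, and its unadjusted p of 0.0014 was the smallest of all members in that comparison (adjusted p = 0.23).

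Rpl22, an RNA-binding protein of the large subunit (chr4:152325742-152334071), changed least of the 5. Its values were 1620, 1578, 1591 and 1837 in control mice, 2032, 2216, 2103 and 1867 in PS mice and 1982, 2002, 1790 and 2282 in AS mice. One AS mouse lay below the highest control mouse, number 117. The difference was 0.31 ± 0.09 in PS (adjusted p = 0.098, limma) and 0.28 ± 0.09 in AS (adjusted p = 0.25).

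**Figure D3:**
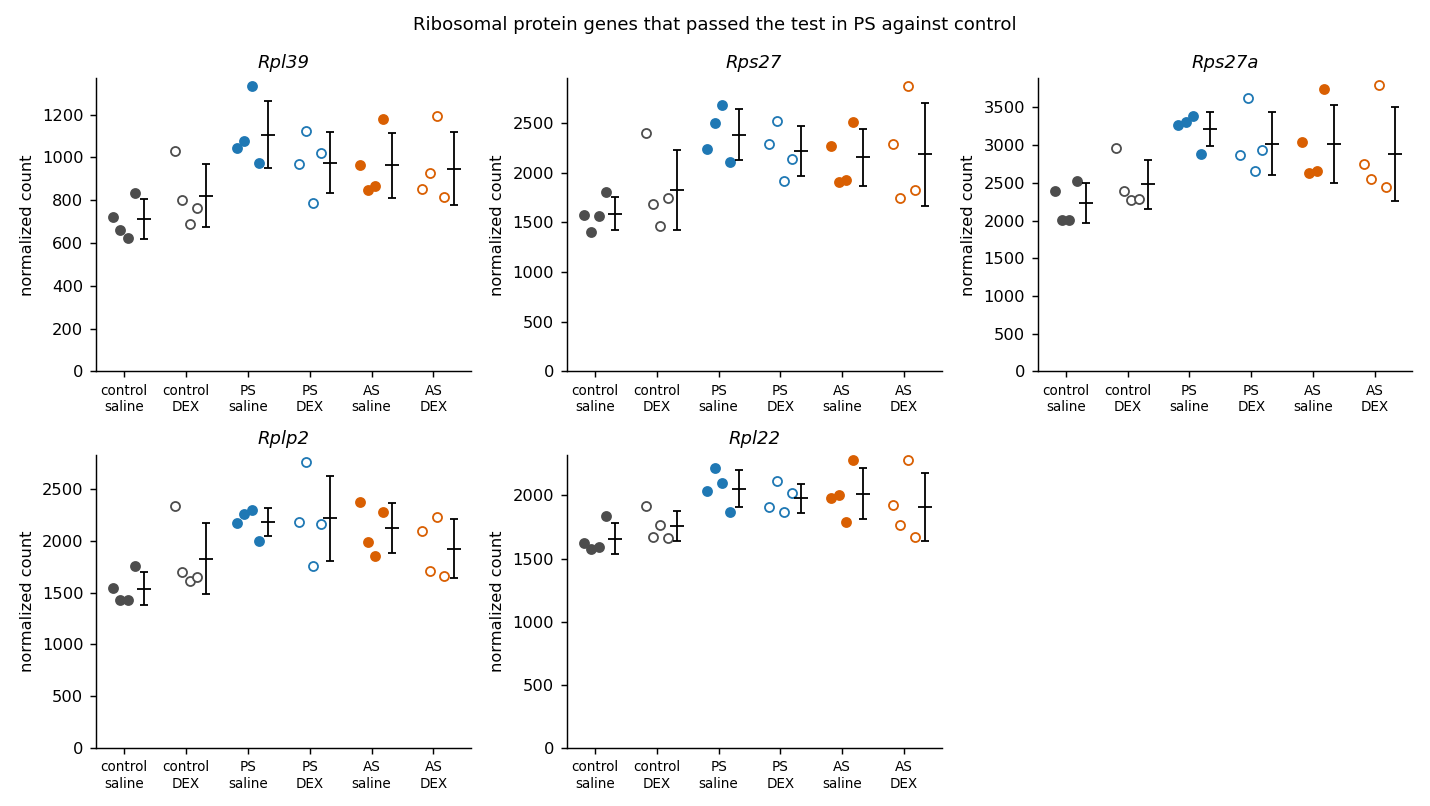
Normalized counts (y axis from 0) of the 5 ribosomal protein genes that passed the test in PS against control, for each mouse (points, filled for saline and open for DEX) with mean ± SD of 4 mice. In the saline groups, all PS mice exceed all control mice for each gene; in the DEX groups, the ranges of control, PS and AS mice overlap.

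The other 74 ribosomal protein genes did not pass in PS mice, though most lay on the same side. Of all 79, 71 had a positive difference in PS against control, with a median of 0.18, and 77 had one in AS against control, with a median of 0.20. Over all tested genes the medians were 0.002 and 0.003, with 50.6% and 50.9% positive. Unadjusted p-values under 0.05 were reached by 23 ribosomal protein genes in PS and by 26 in AS, all of them positive, whereas 1852 and 1548 of all 14060 genes reached them, in either direction. In AS against control limma called no member, in a comparison in which 0.185% of genes were called (0.0569% upward), while DESeq2 called 1 ribosomal protein gene and edgeR none. Both comparisons use the same 4 control saline libraries, so their values are not independent of each other. The 79 genes also varied together between libraries (median pair correlation 0.88). Counts of them, here and below, thus do not stand for 79 separate observations. Taken per mouse, the mean ribosomal protein score of control saline mice was -0.11 ± 0.15 (SD, n = 4). Saline-treated PS mice had 0.08 ± 0.09, and saline-treated AS mice 0.09 ± 0.15. Control mouse 117 (0.08) fell inside the ranges of both stressed groups.

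Large and small subunit genes stood near each other. The median difference in PS was 0.16 for the 45 large subunit genes (39 positive, 3 called) and 0.20 for the 31 small subunit genes (30 positive, 2 called). In AS the medians were 0.18 (45 positive) and 0.21 (30 positive). The members furthest below 0 were Rpl7a (-0.08) and Rpl41 (-0.08) in PS and Rps29 (-0.20) in AS. Rps29, another small zinc-binding 40S protein, had 2508, 2229, 2433 and 2893 normalized counts in control mice, 2975, 3110, 3405 and 2789 in PS mice and 1999, 1822, 2180 and 2840 in AS mice. PS and AS mice overlapped in it by 1 AS mouse.

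When PS and AS were averaged against control, the same 5 ribosomal protein genes were called (1.51% of all genes were, 0.725% upward and 0.782% downward). Their differences were 0.54 for Rpl39, 0.51 for Rps27, 0.48 for Rplp2 and Rps27a, and 0.29 for Rpl22, with adjusted p-values of 0.040, 0.056, 0.040, 0.051 and 0.065 (limma). In all, 76 of the 79 were positive, with a median of 0.18. These calls rested on few mice. In PS against control, leaving out PS mouse 62 or control mouse 107 left no call, and leaving out control mouse 106 or 109 or PS mouse 2 or 28 left 1. Leaving out AS mouse 44 (saline) or 60 (DEX), which only enter the shared estimate of spread, gave 8 and 10. In the average over PS and AS, no member was left without control mouse 106, 107 or 109, 3 were left without PS mouse 28 or AS mouse 44, and 8, 11 and 13 without control mouse 117, control mouse 101 (DEX) and AS mouse 60. The median over the 79 genes stayed within 0.13 to 0.24 for PS and 0.13 to 0.26 for AS whichever library was left out.

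Other measures moved with this difference. The 139 other short genes had a median of 0.06 in PS (90 positive, 2 called) and 0.08 in AS (98 positive, none called). Nuclear oxidative phosphorylation genes had medians of 0.05 and 0.03. Of 31 mitochondrially encoded genes, the tRNA genes mt-Te (1.37 ± 0.28, adjusted p = 0.018) and mt-Tp (1.03 ± 0.23, adjusted p = 0.031, limma) were called higher in PS and again in the average of PS and AS, with list medians of 0.12 in PS and 0.16 in AS. In unstressed controls, mt-Te was also called higher with DEX than with saline (1.03 ± 0.28, adjusted p = 0.035, limma). With the short-gene score as a covariate, an alternative chosen after the data were seen, the ribosomal protein medians were 0.12 in PS and 0.13 in AS, and 28 and 21 of the 79 genes were called. That fit also called more genes in general, 7.1% of all genes in PS and 1.49% in AS. Shorter ribosomal proteins had larger differences in PS: the median was 0.23 for the 26 genes with under 400 coding bases, 0.17 for the 28 with 400 to 600 and 0.11 for the 25 above that (Spearman's rho across genes -0.39, a description over 79 genes of the same libraries). In AS the medians were 0.23, 0.22 and 0.17 (rho = -0.22). The 62 factor genes had the same sign, with rho of -0.27 in PS and -0.40 in AS. With exon length in place of coding length, rho for the ribosomal proteins was -0.02 in PS and -0.04 in AS.

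The control saline libraries also differed from the rest in the annotated pseudogenes of ribosomal proteins, copies whose sequences are close to the parent genes. The 42 pseudogenes in the table summed to 0.717% to 1.04% of the ribosomal protein counts in the 4 control saline libraries and to 0.571% to 0.688% in the other 20. In PS against control 13 of the 42 were called lower and 1 higher, with a median of -0.57, and in AS 5 were called lower. Of all genes, 0.797% were called lower in PS and 0.128% in AS. Pseudogenes were also called lower with DEX in unstressed controls, as Rpl34-ps1 was (-2.36 ± 0.31, adjusted p = 1.9e-05, limma). A score of the pseudogenes, made as for the ribosomal proteins, was 0.52 ± 0.26 in control saline mice and -0.13 ± 0.22 in control DEX mice. It was -0.24 ± 0.07 in PS and 0.03 ± 0.19 in AS saline mice (SD, n = 4). Of the pseudogenes, 29 had under 1% of their parent's mean level and the highest had 7.84%. The microglial marker list (6 of 6 genes in the table) summed to 8564 to 9804 in control, 9474 to 10132 in PS and 10273 to 10967 in AS saline mice, and the oligodendrocyte list (6 of 6) to 29477 to 46709, 23772 to 34766 and 19293 to 32942. The part of pseudogenes and of these cell types in the ribosomal protein difference was not tested.

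**Figure D4:**
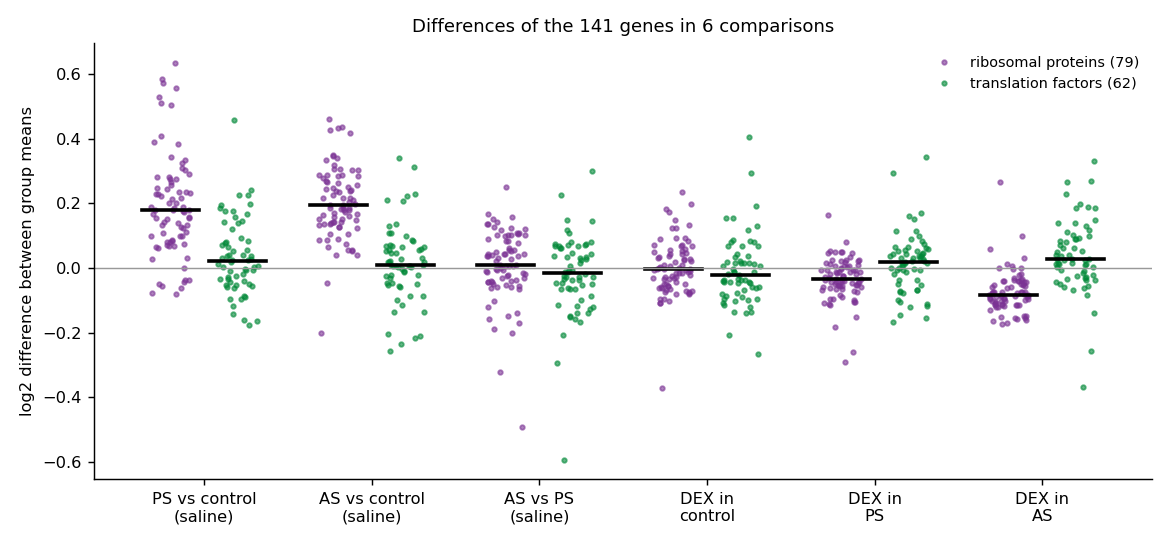
Log2 difference between group means for each ribosomal protein gene (purple) and factor gene (green) in 6 comparisons, with the median of each set as a black bar. Ribosomal proteins have medians of 0.18 and 0.20 in PS and AS against control with saline and between -0.08 and 0.01 in the other 4 comparisons.

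The 3 paralogs were considered beside their parents. Rpl22l1 had 527 ± 57 normalized counts in control saline mice, 788 ± 124 in PS and 640 ± 175 in AS (SD, n = 4), a PS difference of 0.57 ± 0.17 (SE) that missed the threshold (adjusted p = 0.12, limma). Shares of a pair are given after each count was divided by its gene's exon length. Of Rpl22 plus Rpl22l1, Rpl22l1 made up 31.7% ± 1.69 in control saline mice, 35.8% ± 3.32 in PS mice and 31.4% ± 3.48 in AS mice. Rps27l, a p53-inducible paralog of Rps27, went from 121 ± 26 to 177 ± 26 in PS (0.56 ± 0.18, adjusted p = 0.15) and 160 ± 18 in AS. Rpl7l1 differed by -0.04 ± 0.07 in PS and -0.05 ± 0.07 in AS, while Rpl7 differed by 0.17 ± 0.10 and 0.10 ± 0.10.

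Among the remaining members fixed by rule, Rpl3 had differences of 0.08 ± 0.08 in PS and 0.07 ± 0.08 in AS, Rpl10 of 0.26 ± 0.09 and 0.29 ± 0.09, and Rps4x of 0.24 ± 0.09 and 0.19 ± 0.09. Rpl4 differed by 0.03 ± 0.08 and 0.09 ± 0.08, Rps15 by 0.06 ± 0.12 and 0.20 ± 0.12, and Rpsa by 0.07 ± 0.10 and 0.18 ± 0.10. None of these passed the test. Fau and Rack1, left out by their symbols, did not pass either. Fau differed by 0.03 ± 0.13 in PS and 0.17 ± 0.13 in AS, and Rack1 by 0.09 ± 0.09 and 0.15 ± 0.09.

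Translation factors did not share the shift of the ribosomal proteins. Their median difference was 0.02 in PS (36 of 62 positive) and 0.01 in AS (38 positive), and limma called no factor in either comparison or in their average. At an unadjusted p under 0.05 there were 14 factors in PS, 11 of them positive, 8 in AS and 6 in the average, beside 1852 (13.2%), 1548 and 2028 (14.4%) of all 14060 genes. DESeq2 called 1, 0 and 4 factors, and 431, 99 and 487 genes in all. The cap-binding scaffolds Eif4g1 and Eif4g3 were lower in value in both stressed groups. Eif4g1 had 9092 ± 478 normalized counts in control mice, 8109 ± 336 in PS mice and 7868 ± 578 in AS mice, differences of -0.16 ± 0.07 and -0.21 ± 0.07 (adjusted p = 0.32 and 0.30, limma). Eif4g3 had 11372 ± 618, 10071 ± 484 and 9872 ± 466, with differences of -0.17 ± 0.07 and -0.20 ± 0.07 (adjusted p = 0.28 and 0.31). For the related gene Eif4g2, the differences were -0.05 ± 0.07 and -0.11 ± 0.07.

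Eef1b2, the exchange factor of eEF1A, had the opposite sign, with 2045 ± 140 normalized counts in control, 2420 ± 160 in PS and 2555 ± 370 in AS mice. Its differences were 0.24 ± 0.10 and 0.31 ± 0.10 (adjusted p = 0.30 and 0.27, limma). Eef1g of the same complex had 0.14 ± 0.08 and 0.21 ± 0.08. Eif1 had 0.18 ± 0.08 and 0.21 ± 0.08. Eif2b5, the catalytic subunit of eIF2B, had 0.16 ± 0.05 and 0.11 ± 0.05 (adjusted p = 0.17 and 0.45). Eef2 had -0.12 ± 0.07 and -0.04 ± 0.07, and Eef1a1 had -0.01 ± 0.07 and 0.07 ± 0.07.

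For the helicases, the differences were 0.03 ± 0.06 and 0.00 ± 0.06 for Eif4a1 and 0.17 ± 0.08 and 0.07 ± 0.08 for Eif4a2. Shares of a pair are again of counts divided by exon length. Eif4a2 made up 65.1% ± 1.16 of both helicases in control saline mice and 67.2% ± 1.79 in PS mice. Eef1a2 made up 45.6% ± 1.53 of Eef1a1 plus Eef1a2 in control saline mice, 42.9% ± 1.83 in PS and 42.9% ± 0.819 in AS saline mice. Its own difference was -0.16 ± 0.07 in PS (adjusted p = 0.36, limma). Eif1b made up 33.3% ± 0.502 of Eif1 plus Eif1b in control saline mice, 29.8% ± 1.45 in PS and 31.4% ± 0.948 in AS.

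Among the cap-binding proteins, Eif4e differed by 0.12 ± 0.05 in PS and 0.06 ± 0.05 in AS, Eif4e2 by 0.07 ± 0.06 in both, and Eif4e3 by 0.08 ± 0.11 and 0.23 ± 0.11. Their repressor Eif4ebp1 had 123 ± 12 normalized counts in control, 127 ± 19 in PS and 157 ± 18 in AS saline mice, a difference of 0.34 ± 0.14 in AS (adjusted p = 0.36, limma). Eif4ebp2, the more abundant repressor in brain, differed by -0.04 ± 0.08 and 0.02 ± 0.08. Eif2s1, the subunit phosphorylated in the integrated stress response, differed by 0.04 ± 0.08 and 0.01 ± 0.08. The other 2 subunits of eIF2 differed by 0.20 ± 0.10 and 0.14 ± 0.10 (Eif2s2) and by 0.02 ± 0.08 and -0.10 ± 0.08 (Eif2s3x). Eif5a differed by 0.00 ± 0.08 and 0.07 ± 0.08, and Eif5a2 by -0.09 ± 0.13 and -0.26 ± 0.13.

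Scaffold and scanning factors lay on both sides of 0. Eif3a, the largest subunit of eIF3, differed by 0.08 ± 0.10 in PS and -0.22 ± 0.10 in AS, Eif5, which activates the GTPase of eIF2, by 0.14 ± 0.06 and 0.01 ± 0.06, Eif1ax by 0.06 ± 0.09 and -0.05 ± 0.09, and the eIF4E transporter Eif4enif1 by -0.09 ± 0.05 and -0.06 ± 0.05. The eEF1A methyltransferase genes Eef1akmt1 and Eef1aknmt stood at 359 and 42.2 per kilobase and differed by at most 0.11 in either group.

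AS and PS saline mice were next compared with each other. No gene of the 14060 was called in limma (0.0%), with 673 (4.79%) at an unadjusted p under 0.05, of which 1 was a ribosomal protein and 5 were factors. DESeq2 and edgeR called no member either. The 2 members with the smallest p-values were Eif3j2, a second copy of the eIF3j subunit, and Rps29. Eif3j2 had 71.4, 94.0, 89.5 and 91.5 normalized counts in PS mice and 47.2, 77.5, 47.7 and 59.5 in AS mice. One AS mouse lay within the PS range. Its difference was -0.59 ± 0.16 (adjusted p = 0.70, limma), and that of Rps29 was -0.49 ± 0.15 (adjusted p = 0.93). The ribosomal protein median was 0.01, with 45 of 79 positive, and it ranged from -0.05 without AS mouse 44 to 0.07 without AS mouse 14.

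The second question was what DEX did within 6 h. No ribosomal protein gene was called in any phenotype or in their average, although 6.51% of all genes were called in controls, 5.4% in PS, 8.8% in AS and 15.5% in the average. At an unadjusted p under 0.05 there were 1, 1 and 0 ribosomal protein genes in control, PS and AS mice and 0 in the average. edgeR and DESeq2 called none of the 79 in these 4 comparisons, whereas the fit with the short-gene score called 10 in controls, 1 in PS, 4 in AS and 2 in the average (12.5%, 11.4%, 14.6% and 22.6% of all genes). Leaving out control mouse 101 (DEX) gave 1 call in controls and leaving out AS mouse 60 (DEX) gave 1 in the average. The median difference was -0.004 in controls (37 positive), -0.03 in PS (23 positive), -0.08 in AS (7 positive) and -0.04 in the average (12 positive). Each median moved with single mice. In controls it was -0.09 without DEX mouse 101 and 0.06 without saline mouse 117. In PS mice it was -0.10 without DEX mouse 34 and 0.03 without DEX mouse 52, and in AS mice it was -0.18 without DEX mouse 60 and -0.02 without saline mouse 44.

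Among the translation factors, 3 rose after DEX. Eef2k was called in all 3 phenotypes, Eif2b2 in PS and AS, and Eif5b in AS, and no factor fell in any of them. Upward calls made up 4.05% of all genes in controls, 2.75% in PS, 3.83% in AS and 7.49% in the average over the 3 phenotypes, and among the 62 factors they were 1, 2, 3 and 2, so the factors as a set did not stand out from all genes by these counts. Downward calls made up 2.46%, 2.65%, 4.97% and 8.05% of all genes and none of the factors.

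Eef2k encodes the calmodulin-dependent kinase that phosphorylates eEF2 and slows elongation (chr7:120842831-120907450). Its normalized counts were 1616, 1729, 1761 and 1573 in control saline mice and 2242, 2211, 2228 and 2162 in control DEX mice. In PS mice they were 1716, 1539, 1736 and 1650 with saline and 2138, 1910, 2029 and 2066 with DEX. In AS mice they were 1806, 1552, 1786 and 1576 with saline and 1914, 2136, 1970 and 2446 with DEX. All 12 DEX mice exceeded all 12 saline mice. Marker sums of other cells also parted with DEX. The striatal list (4 of 5 genes in the table, Adora2a not among them) summed to 3280 to 4008 with saline and 4189 to 4998 with DEX in controls, 3121 to 3824 and 3930 to 4481 in PS mice and 3386 to 3961 and 4364 to 5839 in AS mice. The microglial list summed to 8314 to 8900 with DEX in PS mice and 8294 to 9705 in AS mice, below the saline ranges of both. Their part in the Eef2k and Eif2b2 differences was not tested.

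The differences of Eef2k were 0.41 ± 0.07 in controls, 0.29 ± 0.07 in PS and 0.33 ± 0.07 in AS (SE, adjusted p = 0.00063, 0.014 and 0.0045, limma). Averaged over phenotypes the difference was 0.34 ± 0.04 (adjusted p = 1e-06). It was called in every alternative and with any 1 library left out. The interaction was -0.11 ± 0.10 for PS and -0.08 ± 0.10 for AS (adjusted p = 0.75 and 0.80), so a difference of the DEX response between phenotypes was not shown. The kinase's substrate gene, Eef2, differed by -0.01 ± 0.07, 0.05 ± 0.07 and -0.05 ± 0.07.

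Eif2b2 encodes the beta subunit of eIF2B, which reloads eIF2 (chr12:85219481-85226628). It had 738, 678, 777 and 763 normalized counts in control saline mice and 898, 795, 872 and 813 with DEX. PS mice had 699, 646, 698 and 633 with saline and 802, 988, 792 and 829 with DEX, and AS mice had 755, 657, 709 and 789 with saline and 807, 810, 982 and 912 with DEX. Within each phenotype the saline and DEX ranges did not overlap.

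The differences of Eif2b2 were 0.19 ± 0.08 in controls (adjusted p = 0.22), 0.34 ± 0.08 in PS (0.013), 0.27 ± 0.08 in AS (0.048) and 0.27 ± 0.05 in the average (0.00019, limma). In AS the call was lost without saline mouse 14 or 40 or DEX mouse 60 or 72, with only the groups compared in the fit, and in edgeR on libraries thinned to equal depth. The interactions were 0.15 ± 0.11 for PS and 0.08 ± 0.11 for AS and did not pass. Eif2b5 of the same complex differed by 0.07 ± 0.05, 0.04 ± 0.05 and -0.02 ± 0.05.

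Eif5b encodes the GTPase that joins the large subunit (chr1:37998010-38055579). In AS mice it had 3081, 3463, 3274 and 3478 normalized counts with saline and 3693, 3873, 4353 and 4081 with DEX, a difference of 0.27 ± 0.06 (adjusted p = 0.0074, limma). No AS DEX mouse fell into the AS saline range. In control mice it had 3580, 3364, 3149 and 3325 with saline and 3185, 3292, 3312 and 3289 with DEX, and in PS mice 3494, 3976, 3516 and 3797 with saline and 3670, 3581, 3369 and 3782 with DEX, with differences of -0.04 ± 0.06 in both. The interaction of AS and DEX was 0.30 ± 0.08 and missed the threshold in limma (adjusted p = 0.12). DESeq2 and the fit with the short-gene score called it, in fits that called 3.14% and 6.54% of all genes. Markers of other cells also differed between these AS mice: the endothelial list (6 of 6 genes) summed to 4262 to 7029 with saline and 3192 to 4984 with DEX, the mural list (6 of 6) to 3024 to 5898 and 2630 to 3288, and the oligodendrocyte list to 19293 to 32942 and 31022 to 45760. Their part in the Eif5b difference was not tested.

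**Figure D5:**
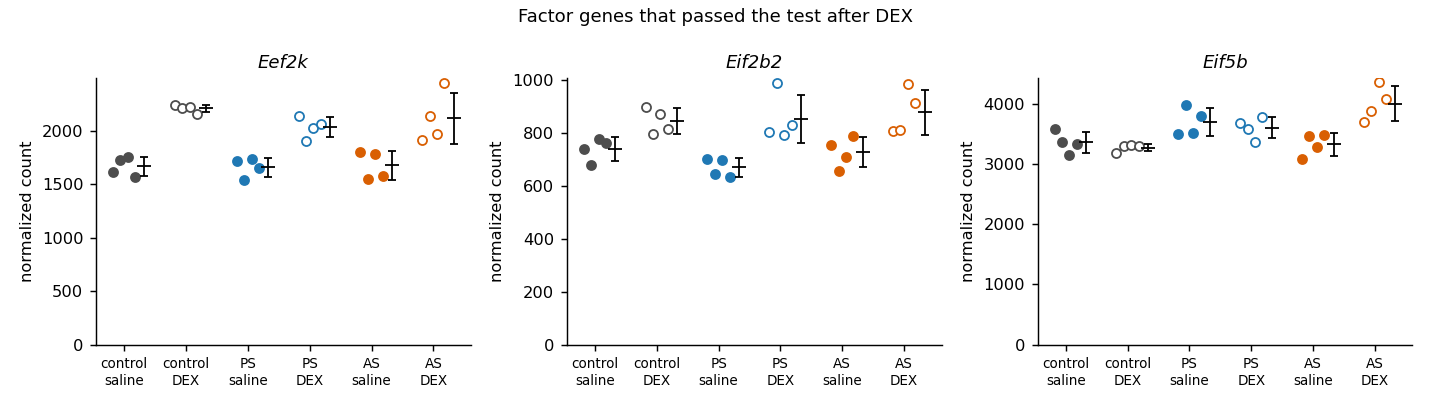
Normalized counts (y axis from 0) of Eef2k, Eif2b2 and Eif5b for each mouse (points, filled for saline and open for DEX) with mean ± SD of 4 mice. All DEX mice exceed all saline mice for Eef2k; for Eif5b the saline and DEX ranges are apart in AS and overlap in control and PS mice.

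The other named factors did not pass the test after DEX. Eef1a1 differed by 0.02 ± 0.07, -0.07 ± 0.07 and -0.06 ± 0.07 in control, PS and AS mice, and Eef1a2 by -0.14 ± 0.07, 0.09 ± 0.07 and 0.06 ± 0.07. Eif4a1 differed by -0.04 ± 0.06, -0.00 ± 0.06 and -0.01 ± 0.06. Eif4g3 differed by -0.21 ± 0.07 in controls, with an adjusted p of 0.11 (limma), and by 0.02 ± 0.07 and 0.11 ± 0.07 in PS and AS. Eif4ebp1 differed by 0.29 ± 0.14, 0.12 ± 0.14 and -0.26 ± 0.14 (adjusted p = 0.29, 0.83 and 0.33).

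Whether the DEX response of members depended on stress was tested by the interactions. For PS and DEX no gene was called in limma (0.0%, with 1406 at an unadjusted p under 0.05), and the smallest p-values among members were those of Eif3c, a core subunit of eIF3, and Rpl7l1. DESeq2 and edgeR called no member. For AS and DEX 0.349% of genes were called, none of them a member in limma. Eif5b and Eif3c had the smallest p-values. Eif3c had 5676 ± 72, 5459 ± 246 and 5352 ± 187 normalized counts in control, PS and AS mice with saline and 5220 ± 227, 5709 ± 285 and 5742 ± 143 with DEX.

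The interactions of Eif3c were 0.19 ± 0.07 for PS (adjusted p = 0.38) and 0.22 ± 0.07 for AS (adjusted p = 0.16, limma), and that of Rpl7l1 for PS was 0.21 ± 0.09 (adjusted p = 0.45). DESeq2 called 3 members in the AS interaction, Eif5b and Eif3c among them, beside 3.14% of all genes (441 of 14060). In limma, leaving out control mouse 112 (DEX), AS mouse 44 (saline) or AS mouse 60 (DEX) gave 4, 2 and 1 calls. The ribosomal protein median of the AS interaction was -0.08 (14 of 79 positive), and without control mouse 101 (DEX) it was 0.01.

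Genes that control translation from outside the ribosome were read from lists. None of the genes of the eIF2 kinase and phosphatase, integrated stress response, mTOR, termination and ribosome biogenesis lists was called in PS or AS against control (limma). At an unadjusted p under 0.05 these lists held, in that order, 0, 2, 2, 2 and 0 genes in PS and 1, 3, 5, 0 and 1 in AS. After DEX, 2 of 22 mTOR pathway genes were called in each phenotype, both higher, where 4.05%, 2.75% and 3.83% of all genes were called higher in control, PS and AS mice. Ddit4, an inhibitor of mTOR complex 1, had 638 ± 83, 674 ± 41 and 725 ± 45 normalized counts in control, PS and AS mice with saline and 976 ± 54, 1061 ± 168 and 966 ± 78 with DEX, differences of 0.62, 0.64 and 0.41 (adjusted p = 0.00024, 0.00018 and 0.011, limma). Sesn1, a sestrin that restrains the same complex, had differences of 0.56, 0.46 and 0.41 (adjusted p = 2.3e-06, 4.4e-05 and 0.00015). The direction was the same in all 3 phenotypes for both genes. In the average, Pdcd4, an inhibitor of the helicase eIF4A, was lower by a small amount (-0.09 ± 0.03, adjusted p = 0.071).

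Calls in the other lists were few. Slc7a11, a cystine transporter and target of the integrated stress response, was lower after DEX in PS (-0.78, adjusted p = 0.045) and AS (-0.77, adjusted p = 0.035, limma) and differed by 0.14 in controls. Its interactions were -0.92 for PS (adjusted p = 0.37) and -0.91 for AS (adjusted p = 0.18), so the responses were not shown to differ. In the average over phenotypes, 3 of 9 integrated stress response targets were lower (Slc7a11, Ddit3 and Phgdh) and 2 of 6 genes of the eIF2 kinase and phosphatase list were higher, beside 8.05% and 7.49% of all genes. The latter were Ppp1r15a, which directs eIF2 dephosphorylation (0.23 ± 0.05, adjusted p = 0.0044), and the kinase Eif2ak1 (0.09 ± 0.03, adjusted p = 0.050).

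Of 27 ribosome biogenesis genes, 2 were lower in the average, where 8.05% of all genes were. They were Mycn (-0.34 ± 0.09, adjusted p = 0.010) and Ubtf, a factor of RNA polymerase I (-0.15 ± 0.04, adjusted p = 0.0079, limma). Within phenotypes, Mycn was lower in controls (-0.55 ± 0.16, adjusted p = 0.043) and Ubtf in AS (-0.22 ± 0.07, adjusted p = 0.056, limma). Ncl, nucleolin, was called higher in AS (0.21 ± 0.06, adjusted p = 0.037), and its interaction of AS and DEX was 0.32 ± 0.08 (adjusted p = 0.11). Of 85 mitochondrial translation genes, 3 were higher in the average, a smaller share than the 7.49% of all genes. Of 10 termination and poly(A)-binding genes none was called. Of the 31 mitochondrially encoded genes, 1 was called higher (mt-Te) and 2 lower (mt-Atp6 and mt-Nd4l) in controls and 1 lower (mt-Nd4l) in the average.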

How the data were processed

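PFC poly(A) RNA from 24 mice was sequenced as strand-specific paired-end libraries. The authors trimmed reads with fastp 0.20.1, aligned them to GRCm38 with HISAT2 2.2.1, counted them per gene with featureCounts (Subread 2.0, GENCODE vM22) and divided the counts by DESeq2 size factors. The stated filter for testing was at least 10 reads in each sample, but in the table used here 913 of 14074 genes, 1 of them a member (Eif4ebp3), had fewer in at least 1 library. The deposited values are thus counts on a per-library scale, a normalized signal, called normalized counts here. Dividing by the step of each library gave whole reads for 100% of values within 0.01. How reads matching several places were counted is not given in the sources used here, and close paralogs and pseudogenes are uncertain for that reason. The deposited p-value and fold change columns hold the authors' own comparisons. No such value was used, except that a missing p-value marked the genes left untested.

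Log2(normalized count + 1) of 14060 genes was fitted with limma 3.58.1 (R 4.3.3) with 1 mean per group, and genes were called at a Benjamini-Hochberg adjusted p under 0.1. Differences on this scale understate those of low genes. Alternatives used edgeR 4.0.16 and DESeq2 1.42.0 on the recovered reads, other scalings, filters and pseudocounts, the number of reads or the short-gene score as a covariate, and 1 library left out. Scripts were tested on simulated data. Members and lists were chosen with earlier results of these data known. Genes were named where called, where among the smallest p-values in a comparison, or where listed by role, abundance or paralogy, and genes at the ends of a range were named after their values were seen. The sources used here do not say whether the groups were prepared together or apart. The p-values measure the spread between these mice and libraries. A difference in handling of a whole group could not be told apart from its stress or treatment.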

Additional observations from a re-analysis of the deposited data

Results flagged for a closer look

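In 60 groups of 4 libraries, covering the members with a call and the scores, 3 had 1 library far from the other 3 by Dixon's test, which flags about 1 group in 20 by chance. For Rpl22, control mouse 117 (saline) had 1837 normalized counts and the other 3 control saline mice had 1578, 1591 and 1620 (a gap of 0.837 of the range). For Rplp2, control mouse 101 (DEX) had 2343 and the other 3 had 1617, 1656 and 1697 (0.890). For the factor score, PS mouse 34 (DEX) had 0.094 and the other 3 lay between -0.003 and 0.011 (0.854).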

How the results depend on the processing

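No paired analysis was possible because the mouse numbers do not recur between groups. In PS against control 5 of the 141 members were called, and the count was 3 with library size as a covariate, 11 with DESeq2, 19 with only the groups compared in the fit and 36 with the short-gene score as a covariate (chosen after seeing the data), and 0 to 10 with 1 library left out. For stress averaged over PS and AS, 5 became 2, 16, 17 and 37 under those settings and 0 to 13 with 1 library left out. In AS against control, 0 became 1 with DESeq2 and 24 with the short-gene score, and 0 with any library left out. In AS against PS, 0 became 1 with the short-gene score. For DEX in controls, 1 became 2 with quantile normalization, 2 with DESeq2 and 16 with the short-gene score (1 to 2 with 1 library left out). The short-gene score also gave 6 in place of 2 for DEX in PS, 9 in place of 3 in AS (2 to 6 with 1 library left out), 6 in place of 2 in the average (2 to 3) and 16 in place of 0 for the interaction of AS and DEX (0 to 4), where DESeq2 called 3. The short-gene fit called 7.1%, 6.18% and 1.49% of all genes in PS, the stress average and AS against control, and 0.0925% in AS against PS. After DEX it called 12.5%, 11.4%, 14.6% and 22.6% in controls, PS, AS and the average, and 6.54% in the interaction of AS and DEX. DESeq2 called 3.07%, 3.46% and 0.704% in PS, the stress average and AS against control, 7.2% for DEX in controls and 3.14% in that interaction. The causes were not tested. Of 907 values of 26 single-gene results under all alternatives, 825 kept their direction and side of the threshold, 70 lost the call, 12 gained it and 0 reversed. Eef2k in each phenotype and Eif5b in AS kept their calls throughout. Rpl39 in PS kept its call in all 11 settings and with 22 of 24 libraries left out in turn, and Rpl22 in 6 of 11 and 9 of 24.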
